A study of Rattus norvegicus with 12 samples.

Results

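The citric acid cycle was read here through 9 genes that encode its mitochondrial enzymes: Cs, Idh3a, Idh3b, Ogdh, Dlst, Suclg1, Sdha, Fh and Mdh2. The genes were taken by name for the reactions they catalyse, with earlier results of these data known. Each symbol matched 1 row of the 30562 gene rows, and all 9 genes passed the filter on low counts, which kept the 8938 genes with a CPM (counts scaled to a library of fixed size) above 10 in at least 1 library. Bulk RNA-seq had been made from primary oligodendrocyte precursor cells (OPCs), the dividing glial cells that give rise to myelinating oligodendrocytes. The cells were shaken off mixed glial cultures of neonatal Sprague-Dawley rat cortex and grown in medium with PDGF-AA and FGF. The 6 mild-hypo-OPC libraries came from cells kept at an FiO2 of 5%, for 6 hours according to the labels, whereas the written methods give the exposure in days. The 6 standard OPC libraries came from OPCs that the labels place in room air. Neither group carried a transgene or an altered allele, and nothing in the labels says which libraries came from separate cultures, and the study describes fewer biological replicates than there are libraries here. Standard errors, intervals and p-values therefore measure only the spread between these libraries, which may be technical, and would be too small if libraries shared a culture.

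The cycle takes up acetyl groups as citrate, oxidises them in a closed series of reactions in the mitochondrial matrix and passes the electrons to the respiratory chain. Its oxygen dependence is indirect, through the chain that reoxidises NADH and the flavin of succinate dehydrogenase. Several of its intermediates also leave the mitochondrion: citrate feeds the synthesis of the lipids that oligodendrocyte lineage cells need for myelin, and oxoglutarate is a cosubstrate of the prolyl hydroxylases that mark HIF-1α for degradation when oxygen is present.

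The mild-hypo-OPC libraries held 4111669 to 9022324 counts and the standard OPC libraries 1356079 to 2797513, so every mild-hypo-OPC library was deeper than every standard one, and depth and condition cannot be told apart. TMM factors also separated by group, at 1.08 to 1.23 against 0.809 to 0.945, while the most abundant gene took 5.14 to 7.43% of counts against 6.87 to 11.5% and mitochondrially encoded genes 7.29 to 9.04% against 5.76 to 7.85%. Summed over members there were 4616 to 8969 counts in each mild-hypo-OPC library but only 990 to 2386 in each standard library, and counting error is therefore larger in the standard group. The cells carried OPC markers in all libraries (7 of 8 listed markers had a row, and their summed level was 3726 to 4326 CPM against 3083 to 3827 CPM), and Gpr17 among them was called higher (log2 fold change 0.45, no overlap). The summed level of 8 microglial markers was 42.2 to 60.0 CPM in mild-hypo-OPCs and 14.7 to 41.2 CPM in standard OPCs, without overlap. Only 3 of the 8 passed the filter, and of these Csf1r and C1qb were called higher. Aif1, below the filter, was the only one of the 8 with a lower mean (1.87 against 3.13 CPM, overlapping). The 7 astrocyte markers summed to 697 to 820 CPM against 673 to 768 CPM, but within them Aqp4 was called higher (0.79) and S100b lower (-0.46), both without overlap between groups. The 7 neuronal markers summed to 39.4 to 47.6 CPM against 30.7 to 43.3 CPM, and the 6 endothelial and mesenchymal markers with a row to at most 2.49 CPM, with Cdh5 at 0 throughout. The part of these cells and of depth in the results that follow was not tested beyond the values given with them, and in bulk libraries fewer cells of a type and less RNA per cell cannot be told apart.

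The question was whether the transcripts of the cycle's enzymes differed between OPCs in mild hypoxia and in room air, and whether they differed together. The answer depended on the scaling: with library size only, 7 of 9 members were called higher and 0 lower. Calls over all tested genes were then also mostly higher, at 5515 higher and 405 lower. With that scaling the median log2 fold change was 0.52 over the members and 0.43 over all tested genes. Under TMM factors, the scaling reported here, calls went in both directions, in shares near those of all tested genes. Ogdh, the substrate-binding subunit of the oxoglutarate dehydrogenase complex, rose 1.42-fold between group means. Suclg1, a subunit of the next enzyme in the cycle, succinyl-CoA ligase, fell by 0.52 on the log2 scale. Idh3b, a regulatory subunit of the NAD-dependent isocitrate dehydrogenase, fell by 0.32 on the log2 scale. The other 6 genes were not called. In edgeR's quasi-likelihood test at an adjusted p of 0.05, 1 of 9 members was called higher, where 7.00% of all tested genes were, and 2 of 9 were called lower, where 17.0% were. In either direction, 3 of 9 members were called against a background of 24.0%. The median log2 fold change was 0.08 over the 9 members and -0.003 over all tested genes. Levels are CPM scaled by TMM factors, fold changes are those of mild-hypo-OPCs relative to standard OPCs, and n is 6 libraries per group throughout, as deposited. No transcript lengths were used, so levels are compared between groups for the same gene and not between genes.

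**Figure D1:**
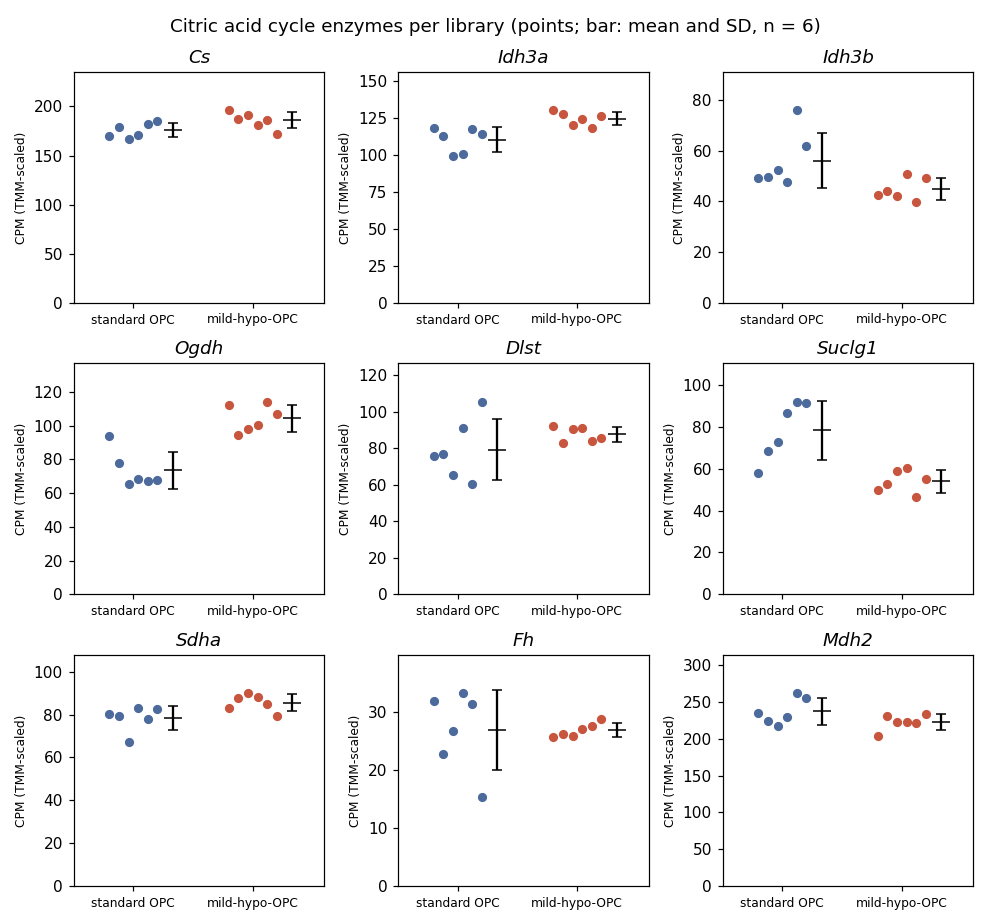
Level of each of the 9 enzymes in CPM (TMM-scaled, linear axis from 0) in the 6 standard OPC libraries (blue) and the 6 mild-hypo-OPC libraries (red). Each point is 1 library, drawn in order of its replicate number, and the bar is the mean with its SD. The groups separate completely for Ogdh only, between 93.7 and 94.3 CPM.

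Entry into the cycle was measured by Cs, citrate synthase, which joins acetyl-CoA to oxaloacetate. Cs stood at 172, 187 and 196 CPM in mild-hypo-OPCs (lowest, median and highest library) and at 167, 175 and 185 CPM in standard OPCs. The groups overlapped, although 4 of the 6 mild-hypo-OPC libraries lay above every standard library. The log2 fold change was 0.08 (SE 0.07, 95% confidence interval -0.06 to 0.22, adjusted p = 0.426 from edgeR). Under TMM factors this interval did not reach the 0.49 measured for Ogdh. It does not cover the choice of scaling: with library size only, Cs was at 0.52 (adjusted p = 6.34e-05 from edgeR). The median of all tested genes was then 0.43.

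The NAD-dependent isocitrate dehydrogenase is built from a catalytic subunit, encoded by Idh3a, and regulatory subunits, encoded by Idh3b and Idh3g. Idh3a stood at 118, 125 and 130 CPM in mild-hypo-OPCs and at 99.0, 113 and 118 CPM in standard OPCs. All but 1 of the mild-hypo-OPC libraries were above every standard library. The log2 fold change of 0.17 (SE 0.07, interval 0.02 to 0.32) had an unadjusted p of 0.0297 in edgeR and an adjusted p of 0.0955, and so was not called. DESeq2 called it (0.18, adjusted p = 0.0385), as did the edgeR test with upper-quartile factors (0.24, adjusted p = 0.0219).

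Idh3b lay the other way, at 39.8, 43.4 and 50.8 CPM in mild-hypo-OPCs and at 47.9, 51.0 and 76.0 CPM in standard OPCs. The spread of the standard group came from replicates 5 and 6, at 76.0 and 61.8 CPM, while its other 4 libraries were between 47.9 and 52.3 CPM, next to the upper mild-hypo-OPC libraries. On the log2 scale the difference was -0.32 (SE 0.11, interval -0.55 to -0.09, adjusted p = 0.0407 from edgeR). This call was close to the threshold. It was lost on leaving out mild-hypo-OPC replicate 1, 2, 3 or 5 (-0.27, -0.29, -0.28 and -0.26) or standard OPC replicate 3, 5 or 6 (-0.34, -0.22 and -0.29), with adjusted p up to 0.124 in edgeR. Fold changes also varied with gene span across all tested genes, and with the trend at the span of Idh3b (-0.24) subtracted its value was -0.09.

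The ratio of 2 subunits' counts within a library does not depend on any scaling between libraries. There were 2.44, 2.87 and 3.05 Idh3a counts per Idh3b count in mild-hypo-OPCs (lowest, median, highest) and 1.54, 1.99 and 2.40 in standard OPCs. The ranges did not overlap: in all 6 mild-hypo-OPC libraries more of the catalytic subunit was counted per regulatory subunit than in any standard library. The ratios were not corrected for the trend on gene span, which was -0.05 at the span of Idh3a and -0.24 at that of Idh3b. How often the ratios of other gene pairs fail to overlap was not computed. Idh3g stood at 57.4, 64.1 and 77.2 CPM in mild-hypo-OPCs and at 67.8, 77.8 and 119 CPM in standard OPCs, for a log2 difference of -0.41 (adjusted p = 0.018 from edgeR). The ratio of Idh3a to Idh3g, examined after its values were seen, was 1.63, 1.97 and 2.17 against 0.983, 1.37 and 1.55 and did not overlap either. That of Idh3b to Idh3g, also examined afterwards, was 0.608, 0.698 and 0.780 against 0.587, 0.632 and 0.770, and here the ranges overlapped almost entirely.

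The oxoglutarate dehydrogenase complex converts oxoglutarate and coenzyme A into succinyl-CoA. Ogdh encodes its decarboxylating subunit, Dlst the succinyltransferase core, and Dld the dihydrolipoamide dehydrogenase that it shares with the pyruvate dehydrogenase complex. Ogdh stood at 94.3, 104 and 114 CPM in mild-hypo-OPCs and at 65.6, 68.0 and 93.7 CPM in standard OPCs. Every mild-hypo-OPC library was above every standard one. The gap was narrow because of standard OPC replicate 1, at 93.7 CPM, with replicate 2 at 78.2 CPM and the other 4 between 65.6 and 68.1 CPM. Means were 104 ± 8.05 CPM and 73.5 ± 10.9 CPM (SD), and the log2 fold change was 0.49 (SE 0.09, interval 0.29 to 0.69, adjusted p = 0.00104 from edgeR), resting on 490 to 1078 counts per library against 74 to 245. Ogdh was the single member of 9 whose libraries did not overlap between groups, where 8.35% of all tested genes had no overlap. It was called in all 12 fits that left out 1 library, with a log2 fold change of 0.46 to 0.59.

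Dlst was not called. It stood at 83.0, 88.0 and 91.9 CPM in mild-hypo-OPCs, inside the standard range of 60.6, 76.1 and 105 CPM. The standard libraries were widely spread, with replicates 5 and 6 at its lowest and highest values, whereas the mild-hypo-OPC libraries lay close together. The log2 fold change was 0.16 (SE 0.11, interval -0.06 to 0.38, adjusted p = 0.283 from edgeR). Dld, at -0.06 (adjusted p = 0.681 from edgeR), was not called, and Mrps36, a small subunit that tethers Dld to this complex, fell by 0.70 on the log2 scale (adjusted p = 0.00856 from edgeR). The count ratio of Ogdh to Dlst was 1.09, 1.18 and 1.36 in mild-hypo-OPCs and 0.645, 1.01 and 1.24 in standard OPCs. The ranges overlapped, so a shift of Ogdh relative to Dlst was not clear of the spread between libraries. Ogdhl, a related gene, was at -0.15 (adjusted p = 0.623 from edgeR).

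Suclg1 encodes the subunit that both forms of succinyl-CoA ligase share, and Sucla2 and Suclg2 encode the subunits that make the enzyme specific for ADP or GDP. Suclg1 stood at 46.5, 53.8 and 60.2 CPM in mild-hypo-OPCs and at 58.1, 79.7 and 92.0 CPM in standard OPCs. In 5 of the 6 standard libraries it was above every mild-hypo-OPC library, and standard OPC replicate 1, at 58.1 CPM, fell among the upper mild-hypo-OPC values. Means were 53.9 ± 5.28 CPM and 78.3 ± 13.9 CPM (SD), and the log2 fold change was -0.52 (SE 0.11, interval -0.75 to -0.29, adjusted p = 0.00226 from edgeR). The call stood in all 12 fits that left out 1 library (-0.60 to -0.45). Sucla2 at -0.13 (adjusted p = 0.450) and Suclg2 at -0.16 (adjusted p = 0.338) were not called by edgeR. Counts of Suclg1 per count of Sucla2 were 1.36, 1.71 and 1.91 in mild-hypo-OPCs and 1.92, 1.99 and 3.33 in standard OPCs, which just missed overlapping.

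**Figure D2:**
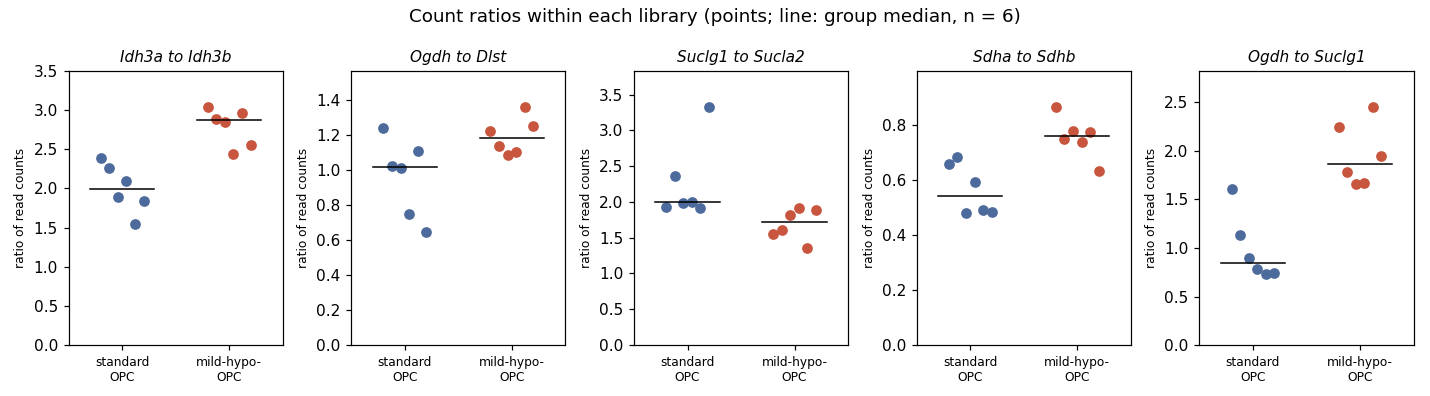
Ratio of read counts of 2 genes within each library (linear axes from 0), for standard OPCs (blue) and mild-hypo-OPCs (red), with 1 point per library and a line at the median of 6. The ranges do not overlap for Idh3a to Idh3b, Suclg1 to Sucla2 and Ogdh to Suclg1, and they overlap for Ogdh to Dlst and Sdha to Sdhb.

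Ogdh and Suclg1 catalyse consecutive steps, through succinyl-CoA, and they moved in opposite directions. Counts of Ogdh per count of Suclg1, a ratio chosen after their values were seen, were 1.66, 1.87 and 2.46 in mild-hypo-OPCs and 0.732, 0.844 and 1.61 in standard OPCs. The highest standard ratio was again that of replicate 1, the deepest library of its group. Within groups, the log2 levels of both genes were negatively correlated over the 12 libraries after each group's mean was subtracted (Pearson r = -0.81, Spearman rho = -0.63, and r = -0.53 without the 2 libraries farthest from the median). On the same centred scale, the correlation with log2 total count was 0.61 for Ogdh (0.22 without 2 libraries) and -0.72 for Suclg1 (-0.66 without 2 libraries). These points share their libraries and their depth, and the values are descriptions.

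**Figure D3:**
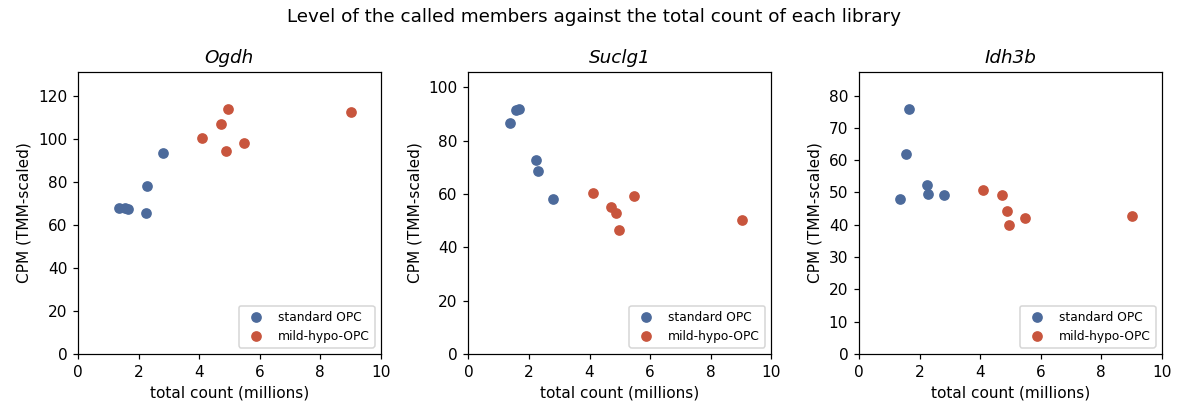
Level in CPM (TMM-scaled, linear axis from 0) of Ogdh, Suclg1 and Idh3b against the total count of each library (horizontal axis), with standard OPCs in blue and mild-hypo-OPCs in red. No total is shared between the groups, and the deepest standard library has the highest Ogdh (93.7 CPM) and the lowest Suclg1 (58.1 CPM) of its group.

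The 3 called members are shown here with the 250 bases before their annotated starts, from RefSeq on assembly GRCr8, to let the sequences stand beside the changes. Of the 9 members, 8 had an entry, and Idh3a had none. Each is written 5′ to 3′ on the strand of its gene. Capitals mark matches to ACGTG on either strand, the core of the element bound by HIF-1 and also part of the E-box CACGTG. Ogdh lies on the plus strand and its window is chr14:85363781-85364030, Suclg1 on the plus strand at chr4:106866079-106866328, and Idh3b on the minus strand at chr3:137939991-137940240.
Ogdh: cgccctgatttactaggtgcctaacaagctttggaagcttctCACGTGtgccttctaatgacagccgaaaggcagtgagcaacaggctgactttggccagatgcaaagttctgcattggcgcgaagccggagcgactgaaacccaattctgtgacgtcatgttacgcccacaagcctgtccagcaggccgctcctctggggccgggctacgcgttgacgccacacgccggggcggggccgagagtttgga
Suclg1: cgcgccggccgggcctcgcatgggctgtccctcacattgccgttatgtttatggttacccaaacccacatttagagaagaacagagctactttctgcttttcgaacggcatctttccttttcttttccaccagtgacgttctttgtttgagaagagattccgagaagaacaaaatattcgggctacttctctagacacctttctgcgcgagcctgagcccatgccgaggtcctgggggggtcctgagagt
Idh3b: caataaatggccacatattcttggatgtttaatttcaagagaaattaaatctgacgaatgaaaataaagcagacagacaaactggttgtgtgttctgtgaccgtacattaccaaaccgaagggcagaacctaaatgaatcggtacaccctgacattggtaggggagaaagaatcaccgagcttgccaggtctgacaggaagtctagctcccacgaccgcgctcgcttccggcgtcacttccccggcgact
The Ogdh window held ACGTG on both strands at a single place, 208 bases before the start, where both matches overlap in the palindrome CACGTG. The Suclg1 and Idh3b windows held no match, nor did those of the other 5 members with an entry. Among 33469 promoter windows of the same length, 16.6% held at least 1 match, against 1 of 8 here. A match is a run of letters and no evidence of binding, and no binding was measured in these cells.

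Succinate dehydrogenase is both a cycle enzyme and complex II of the respiratory chain. Sdha encodes its flavoprotein subunit, Sdhb the iron-sulfur subunit, and Sdhc and Sdhd the membrane anchors. Sdha stood at 79.3, 86.3 and 89.9 CPM in mild-hypo-OPCs and at 67.3, 79.8 and 82.8 CPM in standard OPCs, with 4 mild-hypo-OPC libraries above all standard ones. The log2 fold change of 0.13 (SE 0.08, interval -0.03 to 0.29, adjusted p = 0.237 from edgeR) was not called. Its 3 partners fell: Sdhb by 0.30, Sdhc by 0.33 and Sdhd by 0.57 on the log2 scale (adjusted p = 0.0272, 0.032 and 0.00726 from edgeR). Counts of Sdha per count of Sdhb were 0.631, 0.760 and 0.866 against 0.480, 0.542 and 0.682, higher at the median in mild-hypo-OPCs but with overlapping ranges. Sdhd, the most changed of them, stood at 96.0, 114 and 149 CPM against 118, 170 and 223 CPM, and even here the groups overlapped. Of the 3 partner calls, Sdhd was kept in all 12 fits that left out 1 library, while Sdhb and Sdhc were each kept in 5 of 12.

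Fh, fumarase, hydrates fumarate to malate and was the member with the fewest counts, 132 to 245 in the mild-hypo-OPC libraries but only 20 to 83 in the standard ones. It stood at 25.6, 26.6 and 28.8 CPM in mild-hypo-OPCs and at 15.3, 29.0 and 33.1 CPM in standard OPCs. The tight mild-hypo-OPC values lay inside the standard range, whose lowest library, replicate 6, held 20 counts. The log2 fold change was -0.01 (SE 0.13, adjusted p = 0.968 from edgeR), and its interval, -0.28 to 0.26, would still hold a change of about the size of that of Idh3a.

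Mdh2, mitochondrial malate dehydrogenase, closes the cycle by regenerating oxaloacetate. Mdh2 stood at 204, 223 and 234 CPM in mild-hypo-OPCs and at 217, 233 and 262 CPM in standard OPCs, with overlap. Mdh2 had a log2 fold change of -0.09 (SE 0.07, interval -0.24 to 0.06, adjusted p = 0.399 from edgeR). Its cytosolic counterpart Mdh1, which works in the malate-aspartate shuttle, fell by 0.35 on the log2 scale (adjusted p = 0.022 from edgeR).

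**Figure D4:**
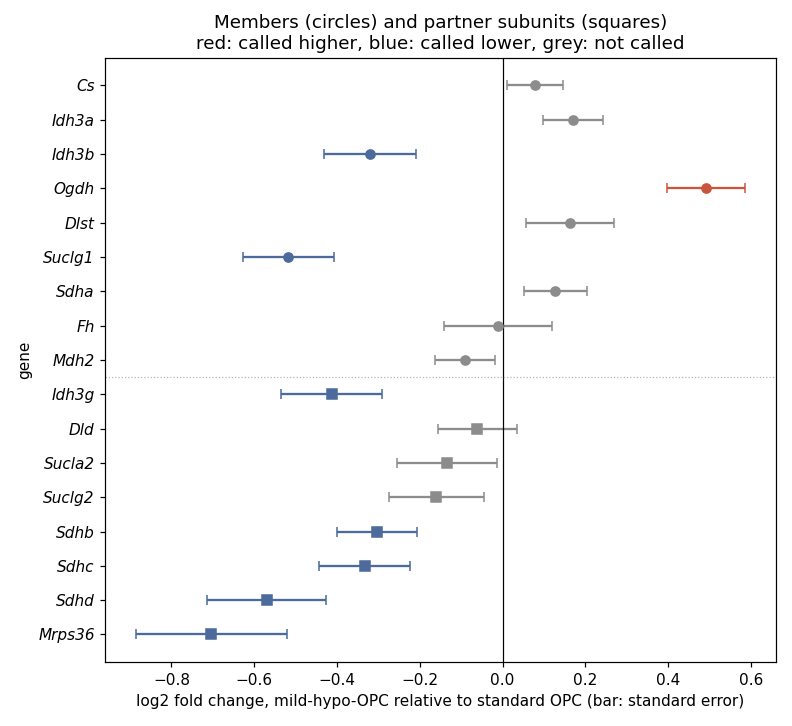
Log2 fold change of mild-hypo-OPCs relative to standard OPCs for the 9 members (circles) and the 8 partner subunits (squares), with the standard error as a bar. Red marks genes called higher, blue genes called lower and grey genes not called, and 1 member is red, 2 members and 5 partner subunits are blue.

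Summed over the 9 members, the level was 922, 936 and 946 CPM in mild-hypo-OPCs and 832, 912 and 979 CPM in standard OPCs. The mild-hypo-OPC range lay within the standard one, so a difference in their total was not seen beyond the spread between libraries on this scale. Without TMM factors the members took 0.0994 to 0.112% of all counts in mild-hypo-OPCs against 0.0668 to 0.0872%, without overlap, so this comparison rests on the scaling. With library size only, the median log2 fold change of all tested genes was 0.43, against 0.52 for the members. As shares of the members' summed counts, Ogdh took 10.1, 11.0 and 12.4% in mild-hypo-OPCs and 6.94, 7.68 and 10.3% in standard OPCs. Suclg1 took 5.04, 5.75 and 6.37% against 6.37, 9.05 and 9.51%. The Suclg1 ranges met without overlapping, and those of Ogdh overlapped by the single standard library that was high. The share of Mdh2 was also without overlap and lower in mild-hypo-OPCs, at 21.8, 23.9 and 25.0% against 25.1, 25.9 and 27.1%, although its own level was not called. Shares within a library add to a fixed total, so a larger share for Ogdh leaves less for the other members.

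Around the members, 56 further genes were listed by role, and 46 of them were tested. Among these, 14 were called lower, where 17.0% of all tested genes were, and 1 higher, where 7.00% were. Their median log2 fold change was -0.14, against -0.003 for all tested genes. The fold changes and calls of the listed genes, here and throughout, were not corrected for the trend on gene span. The 14 became 7 on leaving out standard OPC replicate 5 or mild-hypo-OPC replicate 1, 2 or 5, and 9 without standard OPC replicate 6. With library size as the only scaling, 2 were called lower and 23 higher, where 405 of all tested genes were lower and 5515 higher. Of the 8 partner subunits of the members' enzymes, 5 were called lower, against the same background of 17.0%, and the median of the 8 was -0.32. Those 5 are Idh3g, Sdhb, Sdhc, Sdhd and Mrps36, each described with its enzyme. The calls of Idh3g, Pdhb and Mdh1 were each kept in 7 of 12 fits with 1 library left out. Among 8 tested factors for iron-sulfur clusters, lipoylation and complex assembly, 2 were called lower (background 17.0%). These were Sdhaf1 (an assembly factor for the iron-sulfur subunit of complex II, -0.59, adjusted p = 0.00991) and Iscu (the scaffold for iron-sulfur cluster assembly, -0.52, adjusted p = 0.00495), both from edgeR.

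Pyruvate reaches the cycle through a mitochondrial carrier and the pyruvate dehydrogenase complex. Of 11 tested genes of pyruvate entry, 4 were called lower (background 17.0%) and 1 higher (background 7.00%). Mpc1 and Mpc2, whose products together form the mitochondrial pyruvate carrier, were both called. Mpc2 stood at 21.4, 28.2 and 33.9 CPM in mild-hypo-OPCs and at 35.4, 75.4 and 84.0 CPM in standard OPCs, without overlap, a log2 fold change of -1.22 (adjusted p = 0.000175 from edgeR). Mpc1 stood at 75.5, 92.9 and 103 CPM against 103, 190 and 200 CPM, touching at the edge, with a log2 fold change of -0.85 (adjusted p = 0.000434 from edgeR). The standard group was split for both genes. Its replicates 1 and 2, the deepest of the group, had Mpc1 at 103 and 116 CPM and Mpc2 at 44.7 and 35.4 CPM. Its replicates 3 to 6 had Mpc1 at 189 to 200 CPM and Mpc2 at 73.4 to 84.0 CPM. Replicate 3 was close in depth to replicate 2 (2240615 and 2295080 counts). The pyruvate dehydrogenase subunit genes Pdhx and Pdhb fell by 0.37 and 0.29 on the log2 scale (adjusted p = 0.00721 and 0.022 from edgeR), while Pdha1 at 0.03 and Dlat at 0.21 were not called. Pdk2, a kinase that inhibits pyruvate dehydrogenase, rose, at 27.6, 36.9 and 41.3 CPM against 19.8, 25.5 and 29.1 CPM with a small overlap (log2 fold change 0.48, adjusted p = 0.0094 from edgeR). Pdk1, a kinase gene well known as a HIF-1 target, was below the filter, at 2.82, 3.56 and 4.79 CPM against 1.84, 3.09 and 6.00 CPM with overlapping groups.

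Other routes fill or drain the cycle. Of 13 tested genes of anaplerosis and the metabolite shuttles, 2 were called lower, near the background of 17.0%: Me3, a mitochondrial malic enzyme, at -0.41 (adjusted p = 0.0343 from edgeR) and Slc25a11, the oxoglutarate carrier, at -0.31 (adjusted p = 0.0378 from edgeR). They were kept in 4 and 3 of 12 fits with 1 library left out. Of 6 tested isozymes outside the cycle, 1 was called lower, Mdh1, near the background of 17.0%, and 0 were called higher (background 7.00%). Dhtkd1, an oxoadipate dehydrogenase related to Ogdh, was below the filter, at 3.44, 4.02 and 4.82 CPM against 0.556, 1.43 and 3.05 CPM without overlap, resting on 19 to 33 counts in mild-hypo-OPC libraries but only 1 to 5 in standard ones. Idh2, the NADP-dependent mitochondrial isocitrate dehydrogenase, was at -0.38 (adjusted p = 0.0618 from edgeR) and was not called.

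The 3 member calls did not stand equally under other ways of handling the counts. Under limma-voom, DESeq2, upper-quartile factors, 3 other filters, the replicate number as a block and thinning of every library to the smallest total, Ogdh and Suclg1 were called each time and Idh3b in 4 of these 8. Among replicates 1 to 3 alone the members' log2 fold changes kept their direction but were not called (Ogdh 0.37, adjusted p = 0.129; Suclg1 -0.28, adjusted p = 0.231, edgeR). Replicates 4 to 6 alone gave 0.67 for Ogdh and -0.74 for Suclg1, both called. With library size as the only scaling, the median of all tested genes moved to 0.43, and against it Ogdh was at 0.92 (called), Suclg1 at -0.08 and Idh3b at 0.11. With log2 total count added to the edgeR fit, Ogdh was at 0.15 (adjusted p = 0.921) and Suclg1 at -0.01 (adjusted p = 0.998). Condition and depth do not overlap in these libraries, so that fit compares the groups at depths that only one of them has.

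**Figure D5:**
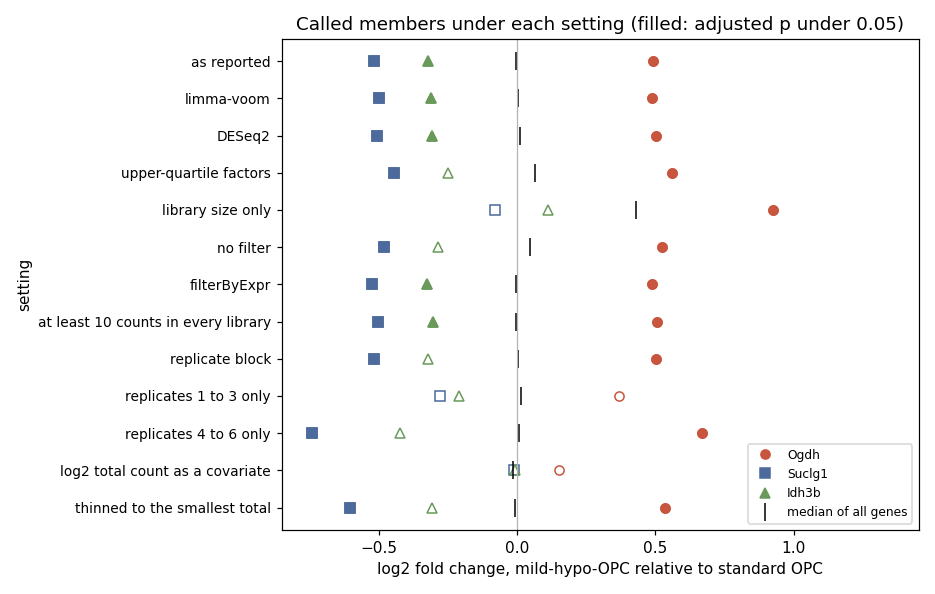
Log2 fold change of Ogdh (red circles), Suclg1 (blue squares) and Idh3b (green triangles) under the reported test and 12 other settings, with filled symbols where the adjusted p is under 0.05 and a black tick at the median of all tested genes. Ogdh stays to the right of that tick in each setting (0.15 to 0.92), and Suclg1 stays to its left except with total count as a covariate, where they coincide.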

How the data were processed

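RNA from 12 libraries of primary rat OPCs had been sequenced. The authors deposited a table of whole-number read counts per Ensembl gene, without normalization. Per the submitters' processing notes, reads were trimmed with Trimmomatic 0.36, checked with FastQC 0.11.9, aligned with STAR 2.7.9a to mRatBN7.2 and quantified with RSEM 1.3.3, and how the estimates became whole numbers is not given in the sources used here. Groups and replicate numbers came from the labels, and 0 columns were left unused. Pairs of libraries of a group differed by more than sampling noise (chi-square per degree of freedom 3.22 to 19.7 and 3.78 to 18.8), and no duplicate deposit was seen. This does not show separate cultures: the study's text gives 3 biological replicates per group where 6 libraries per group are deposited, and all 6 were used by their labels.

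The filter kept genes whose CPM passed 10 in 1 library or more. Counts were scaled by TMM and tested with glmQLFit and glmQLFTest in edgeR 4.0.16 (R 4.3.3), with a model of condition alone and p-values adjusted by Benjamini-Hochberg over all 8938 genes. The standard error is that implied by the F statistic, and intervals use its t quantile at 95%. Alternatives were limma 3.58.1 (voom), DESeq2 1.42.0, upper-quartile or library-size scaling, 3 other filters, a replicate block, replicates 1 to 3 or 4 to 6, log2 total count as a covariate, thinning, subtraction of a trend on gene span and leaving out each library. Span came from a RefSeq table of GRCr8 matched by symbol (95.59% of tested genes). The members and lists were chosen with earlier results of these data known, and 2 genes taken off the lists are not reported here. Named genes are all members, all partner subunits, called genes of the other lists (at most 8 per list by p) and the 5 genes whose group-centred log2 CPM (prior count 2) followed the members' mean most closely. Gpr17, Aqp4, S100b, Csf1r, C1qb, Aif1, Dhtkd1, Pdk1, Idh2, Ogdhl, Pdha1, Dlat and Cdh5 were named outside this rule, after their values were seen. On simulated counts with 200 of 8938 genes changed by 1 on the log2 scale, edgeR recovered 189 with 7 false calls among 196. The planted changes were larger than those of the called members, and fewer genes changed than were called in the data. The simulated libraries were also independent, so these figures do not measure the error of the members' calls. Intervals and errors do not cover the unequal depth of the groups. Figures were drawn with matplotlib 3.10.9.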

Additional observations from a re-analysis of the deposited data

Results flagged for a closer look

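Sdha in standard OPC replicate 3 was at 67.3 CPM, below the other 5 libraries of its group, whose next lowest value was 78.0 CPM, and the gap took up 0.688 of the group's range, above the critical value of Dixon's test for 6 samples. It was the single value so flagged among 18 groups of libraries (9 members in each of 2 conditions), and chance flags about 1 in 20. Without that library, Sdha had a log2 fold change of 0.09 (adjusted p = 0.439 from edgeR).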

How the results depend on the processing

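The unequal depth of the groups limits every comparison, and Fh, with the fewest counts, had the largest standard error of the members (0.13). Against 1 member called higher, DESeq2 and upper-quartile factors gave 2 (Ogdh and Idh3a), library size only gave 7, and replicates 1 to 3 or log2 total count as a covariate gave 0 (2 and 0 at an unadjusted p under 0.05). Against 2 members called lower, upper-quartile factors, no filter, the replicate block, replicates 4 to 6 and thinning each gave 1, and library size only, replicates 1 to 3 and the covariate each gave 0 (0, 1 and 0 unadjusted). Library size only gave a median over members of 0.52 where all genes had 0.43, and turned Idh3b to 0.11, Fh to 0.42 (adjusted p = 0.0141) and Mdh2 to 0.35 (adjusted p = 0.00427), all from edgeR. Among the 46 other genes, 1 was called higher and 14 lower. Upper-quartile factors gave 3 higher and 8 lower, library size only 23 and 2, replicates 1 to 3 gave 0 and 1 (0 and 8 unadjusted), and the covariate 0 and 0 (0 and 2 unadjusted). No filter gave 2 higher, filterByExpr 2 and replicates 4 to 6 gave 3. Leaving out 1 library gave 1 member higher each time, 1 to 2 lower, 1 other gene higher and 7 to 16 lower, the lowest on leaving out standard OPC replicate 5 or any of mild-hypo-OPC replicates 1, 2 and 5, and 9 without standard OPC replicate 6. The cause of these moves was not tested. Over all genes, 626 were called higher and 1520 lower. With upper-quartile factors these were 1136 and 1255, with library size only 5515 and 405, with replicates 1 to 3 they were 53 and 343, with the covariate 0 and 43, and with thinning 362 and 1174.

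Libraries with the same replicate number in both groups had correlations of -0.28 to 0.30 after each group's mean was subtracted. Only mild-hypo-OPC replicate 1 was most like the standard library of its own number. Pairing by number was thus not seen, but these values cannot exclude cultures shared between the groups. With the number as a block, 1 member was called higher and 1 lower, Idh3b falling to an adjusted p of 0.0545, with 15 of the other genes lower.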

Other observations

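The 5 genes outside the members whose log2 level followed the mean of the 9 members most closely over the 12 libraries, after each group's mean was subtracted, were LOC108351137 (Pearson r = 0.93), Cyren (0.91), Cd151 (0.90), Azin1 (0.90) and Eif3f (0.90). These are the highest of all tested genes, the libraries share depth and scaling, and the values are descriptions. Eif3f, a subunit of a translation initiation factor, was itself called lower in mild-hypo-OPCs (log2 fold change -0.34, adjusted p = 0.0116 from edgeR), and the other 4 were not called. Among the members themselves, the highest positive correlation after centring was that of Idh3b and Mdh2 (r = 0.73, rho = 0.62, and r = 0.66 without the 2 libraries farthest from the median).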
